A study of Mus musculus with 2 samples.

Results

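Six3, Zic1, Zic4, Nr2f1, Nr2f2, Pax6, Lhx2, Emx1 and Emx2 are transcription factors that divide the embryonic forebrain into regions. The set was chosen by UMI levels across cell classes that earlier results of these data had shown, so levels and ratios are given as a description with no test. All 9 were found by symbol among the 32285 genes of the tables. The measurements were single-cell transcriptomes of mouse cortex at postnatal day 5, with 1 library of Katnal2 mutant tissue (Mut) and 1 library of Katnal2 wild-type tissue (WT). Katnal2 encodes a protein of the katanin family, enzymes that cut microtubules; the sources used here do not give the mutated part of the gene, the strain or the number of animals. Per the labels' protocols, trypsin and collagenase were used to free the cells, which were strained, flow-sorted by a gate that is not given, and loaded on a 10x Genomics device. The design text mentions replicates, but each genotype has 1 library, so cells are not replicates of a genotype, no p-value is given, and every interval below is a 95% interval that covers counting error only.

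In the embryonic forebrain, secreted signals from its borders set up overlapping territories of homeodomain, zinc finger and nuclear receptor factors, and the combination a progenitor holds helps to fix which region its progeny belong to. Emx1, Emx2, Lhx2 and Pax6 are known for the dorsal progenitors that become cortex and hippocampus, Six3 for the anterior and ventral forebrain and the striatum, Zic1 and Zic4 for the septum, the midline and the meninges, and Nr2f1 and Nr2f2 for the caudal and lateral forebrain. Glia made from these progenitors can keep part of the code after birth.

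The libraries held 97891513 UMIs (Mut) and 93664707 UMIs (WT), UMIs being unique molecular identifiers that each mark 1 captured transcript. After filters on barcodes and removal of likely doublets, 9286 Mut cells with a median of 7322 UMIs and 10052 WT cells with a median of 6210.5 UMIs were left. Classes were set by how many genes of a marker list a cell held. Among 20 classes, 14 were neural, with 7314 Mut cells and 8161 WT cells, and 11 of these had at least 30 cells in both libraries. Astrocyte-like cells were the most numerous, 3384 in Mut and 3420 in WT. Both libraries mixed the sexes: 65.3% of the cells that could be assigned were female in Mut and 47.1% in WT. Katnal2 itself was detected in both libraries, at 4.94 CPM (UMIs per 1000000 UMIs of the same cells) in Mut (378 UMIs, 4.45 to 5.46) and 4.03 CPM in WT (290 UMIs, 3.58 to 4.52), a level that cannot check the genotype while the mutated part is not known. Where a count is 0, 3 counts are taken as the limit it allows.

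In the GENCODE annotation of GRCm38, Zic1 (chromosome 9, 91358058 to 91365810, minus strand) and Zic4 (chromosome 9, 91362413 to 91389348, plus strand) share 3398 bases on opposite strands, although the 3′ end of Zic1, where such libraries collect most reads, lies 4355 bases outside the shared stretch. Antisense transcripts overlap Six3 (Six3os1 and Gm28528), Nr2f1, Nr2f2, Pax6, Lhx2 and Emx2. The sources used here do not give whether the authors' counting used strand, so reads from these shared stretches could have been assigned to either gene. The promoters of the pair detected together in many cells (Zic1 and Zic4) and of the pair detected together least often for its separate shares (Six3 and Emx1) are printed here from RefSeq on GRCm38.p6, 250 bases before to 50 bases after the start site, on the strand of the gene. Capitals mark the GC box CCGCCC or, for the other strand, GGGCGG, a short element that the general factor Sp1 binds.
Zic1, chr9:91365719-91366018, minus strand: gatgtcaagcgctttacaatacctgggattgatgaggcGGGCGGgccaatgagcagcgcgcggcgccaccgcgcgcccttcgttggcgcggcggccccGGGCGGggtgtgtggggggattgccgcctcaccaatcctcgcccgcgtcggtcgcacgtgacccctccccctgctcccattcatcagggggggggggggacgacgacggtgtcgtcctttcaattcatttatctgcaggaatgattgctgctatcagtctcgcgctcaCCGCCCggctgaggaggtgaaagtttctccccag
Zic4, chr9:91368722-91369021, plus strand: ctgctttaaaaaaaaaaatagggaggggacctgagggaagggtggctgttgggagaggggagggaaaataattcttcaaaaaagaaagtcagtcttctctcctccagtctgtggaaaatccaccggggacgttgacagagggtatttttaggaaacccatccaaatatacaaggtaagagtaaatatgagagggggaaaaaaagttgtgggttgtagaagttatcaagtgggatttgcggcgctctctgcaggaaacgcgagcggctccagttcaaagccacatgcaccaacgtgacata
Six3, chr17:85620584-85620883, plus strand: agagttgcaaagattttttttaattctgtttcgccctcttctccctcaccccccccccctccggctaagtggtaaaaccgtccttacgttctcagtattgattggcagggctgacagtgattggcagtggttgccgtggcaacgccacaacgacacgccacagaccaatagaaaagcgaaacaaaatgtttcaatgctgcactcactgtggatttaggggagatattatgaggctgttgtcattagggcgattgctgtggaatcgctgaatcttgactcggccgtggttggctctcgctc
Emx1, chr6:85187681-85187980, plus strand: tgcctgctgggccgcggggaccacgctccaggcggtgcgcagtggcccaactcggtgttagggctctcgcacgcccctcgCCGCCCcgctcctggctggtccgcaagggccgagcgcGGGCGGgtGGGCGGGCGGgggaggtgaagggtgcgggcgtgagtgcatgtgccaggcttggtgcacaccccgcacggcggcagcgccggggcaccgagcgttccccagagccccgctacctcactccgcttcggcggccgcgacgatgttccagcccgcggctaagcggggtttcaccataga

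The start sites of Zic1 and Zic4 lie 3204 bases apart on opposite strands, with transcription running apart in these RefSeq models. Emx1 had 4 GC boxes and Zic1 had 3, while Zic4 and Six3 had none. The 6 letters of the GC box are in 35.7% of 32851 RefSeq promoters of this length. The other motifs searched on both strands were AGGTCA (in 16.3% of promoters), TAATTA (5.29%), TAATCC (7.06%), CAGCTG (16.3%) and TATAAA (13.6%); none of these 5 was in the 4 promoters printed. The GC content was 65.3% for Zic1, 46% for Zic4, 50% for Six3 and 74% for Emx1, beside a median of 52.7% over all promoters. A match, or none, is only a description of these letters in these windows.

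Levels are given for each gene across classes, not between genes, as the counts carry no length scale. As a background, microglia-like cells, which arise outside the neural lineage, held each factor at 3.46 CPM or less in Mut and 2.26 CPM or less in WT. Barcodes of 10 to 100 UMIs, taken as RNA free in the suspension, held more: Six3 at 11.4 CPM in Mut and 16.5 CPM in WT, Nr2f2 at 29.9 CPM in Mut and 25.5 CPM in WT, and Zic1 at 44.9 CPM in Mut and 53.4 CPM in WT. The factor levels exceeded the microglia-like level in both libraries, by intervals that do not overlap, in 12 of 14 neural classes for Lhx2 and Pax6, 11 for Zic1, 10 for Six3, Nr2f1 and Emx2, 8 for Zic4, 7 for Emx1 and 5 for Nr2f2. The map of levels by class shows the pattern.

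**Figure D1:**
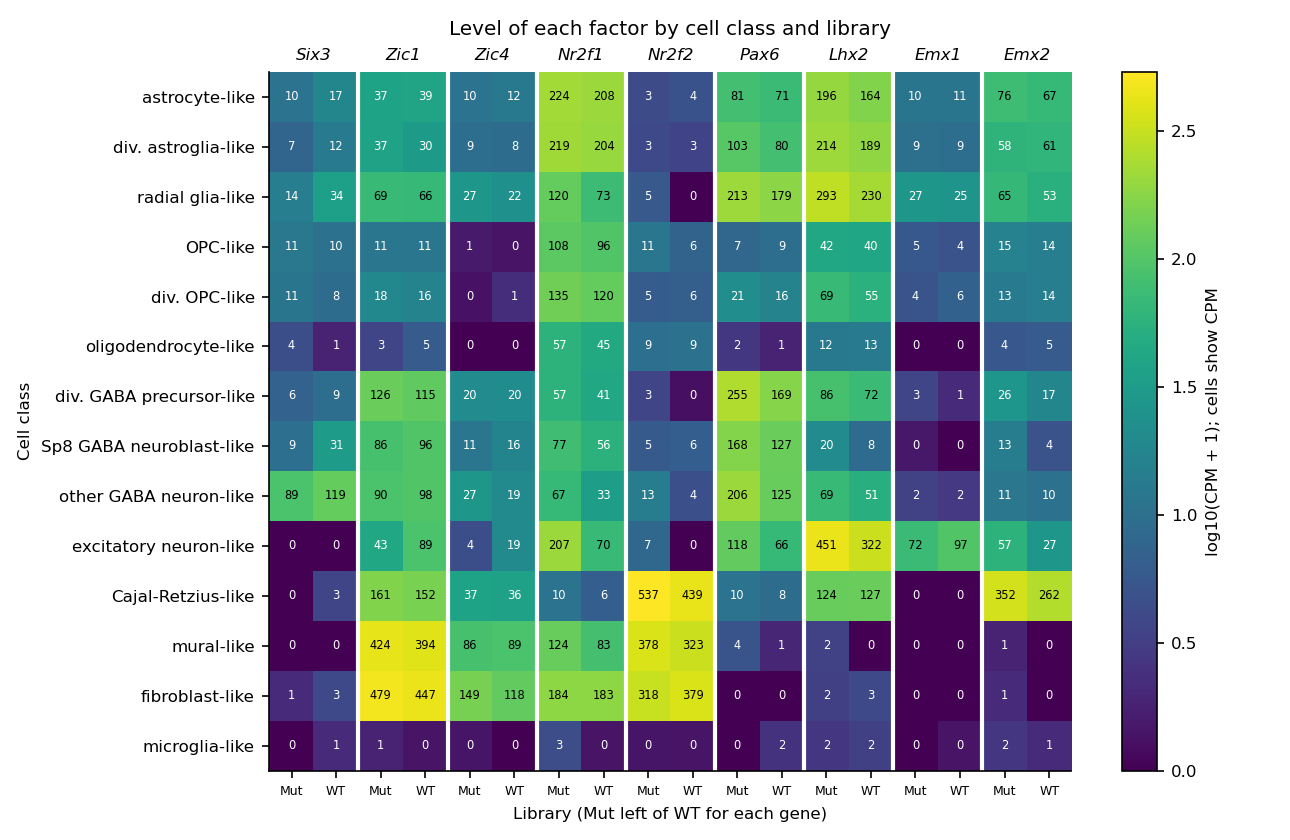
Level of each factor (CPM, number in each cell; colour on a log10 scale of CPM + 1) by cell class, with the Mut library left of the WT library for each gene. Nr2f2 is brightest in Cajal-Retzius-like, mural-like and fibroblast-like cells, Emx1 in excitatory neuron-like cells, and Nr2f1 in astrocyte-like and dividing astroglia-like cells.

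Six3, a repressor needed for the anterior forebrain, was at its highest in the few striatal neuron-like cells. The levels were 747 CPM in 20 Mut cells (70 UMIs) and 488 CPM in 32 WT cells (69 UMIs). These GABAergic cells held at least 3 striatal markers and met neither the Sp8 nor the cortical interneuron rule. The label of the tissue is cortex, yet both libraries held these cells. Next came the other GABAergic neuron-like cells, at 89.0 CPM in Mut and 119 CPM in WT. This class held GABAergic cells that met none of the striatal, cortical interneuron and Sp8 rules, or the striatal rule along with another. Ependymal-like cells, which line the ventricles, had 70.6 CPM in 22 Mut cells and 87.2 CPM in 17 WT cells. Astrocyte-like cells had 9.95 CPM in Mut and 16.7 CPM in WT, close to the free RNA, whose part was not tested. Single cells held up to 7 Six3 UMIs in each library. The antisense partner Six3os1 stood at 96.4 CPM in Mut astrocyte-like cells with Six3 and 1.78 CPM in those without it. Because Six3os1 overlaps Six3 and the use of strand is not given, its UMIs could include Six3 reads. A UMI of Six3 was found in 5.14% of astrocyte-like Mut cells and 7.84% of WT ones, or 1.93% in Mut and 3.04% in WT once every cell was thinned to 2000 UMIs, which left out 68 Mut cells and 98 WT cells. In microglia-like cells, with a median depth of 6494 UMIs in Mut and 5680 in WT, the shares were 0% of 339 Mut cells, which allows up to 0.885%, and 0.679% of 442 WT cells. Excitatory neuron-like and cortical interneuron-like cells had no Six3 UMI in either library; for the excitatory ones, a count of 0 allows up to 10.7 CPM in Mut and 11.6 CPM in WT.

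Zic1 and Zic4 are zinc finger factors encoded by neighbouring genes, and they followed each other across classes. Both were highest in fibroblast-like cells, outside the neural lineage (Zic1 at 479 CPM in Mut and 447 CPM in WT, Zic4 at 149 CPM in Mut and 118 CPM in WT). Zic1 came next in mural-like cells, at 424 CPM in Mut and 394 CPM in WT. Zic4 came next in ependymal-like cells, at 122 CPM in Mut (31 UMIs) and 105 CPM in WT (18 UMIs). Mural-like cells followed at 86.1 CPM in Mut and 89.4 CPM in WT. The intervals of neighbours among these classes overlap in both libraries for Zic4, as do those of fibroblast-like and mural-like cells for Zic1. Among neural classes with at least 30 cells per library Zic1 was highest in Cajal-Retzius-like cells, the early-born cells of the cortical surface, at 161 CPM in Mut and 152 CPM in WT, followed by dividing GABAergic precursor-like cells at 126 CPM in Mut and 115 CPM in WT. The intervals of these neighbours overlap. Oligodendrocyte precursor-like cells had Zic1 at 10.9 CPM in both libraries but Zic4 at 0.560 CPM in Mut and 0.410 CPM in WT. For every 100 Zic1 UMIs there were 26.4 Zic4 UMIs in Mut astrocyte-like cells (23.2 to 29.9) and 30.6 in WT ones (26.9 to 34.7). In oligodendrocyte precursor-like cells there were 5.13 in Mut (1.36 to 13.7) and 3.75 in WT (0.757 to 11.4), below the astrocyte-like intervals in both libraries. In Sp8 neuroblast-like cells there were 12.7 in Mut (7.77 to 19.9) and 16.5 in WT (11.5 to 23.1), also below them. Other GABAergic neuron-like cells had 29.8 in Mut (19.7 to 44.1) and 19.1 in WT (12.6 to 28.2), intervals that overlap those of the astrocyte-like cells.

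Nr2f1 and Nr2f2 are paralogous nuclear receptors (COUP-TFI and COUP-TFII), and their highest classes differed. Nr2f1 was highest in astrocyte-like cells, at 224 CPM in Mut and 208 CPM in WT, and in dividing astroglia-like cells, at 219 CPM in Mut and 204 CPM in WT, with overlapping intervals. Oligodendrocyte precursor-like cells had 108 CPM in Mut and 96.2 CPM in WT, and Cajal-Retzius-like cells the least of the neural classes compared, at 10.1 CPM in Mut and 5.52 CPM in WT. Nr2f2 was instead highest in Cajal-Retzius-like cells, at 537 CPM in Mut and 439 CPM in WT. It had a UMI in 91.7% of 36 Mut cells and 87.2% of 39 WT cells there. No other neural class compared exceeded 13.4 CPM, which is below the free RNA in either library. In astrocyte-like cells Nr2f2 had 3.33 CPM in Mut and 3.85 CPM in WT, in 2.19% of Mut and 2.16% of WT cells. Mural-like cells had Nr2f2 at 378 CPM in Mut and 323 CPM in WT, fibroblast-like cells at 318 CPM in Mut and 379 CPM in WT, and endothelial-like cells, where the receptor is known as a venous factor, at 52.9 CPM in Mut and 54.7 CPM in WT.

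Pax6, a paired-box factor of dorsal progenitors and of olfactory bulb neurons, was highest in dividing GABAergic precursor-like cells in Mut (255 CPM) and in radial glia-like cells in WT (179 CPM). The other member of each pair was near: radial glia-like cells had 213 CPM in Mut and dividing GABAergic precursor-like cells had 169 CPM in WT. Their intervals overlap in both libraries. Other GABAergic neuron-like cells had 206 CPM in Mut and 125 CPM in WT, and Sp8 neuroblast-like cells 168 CPM in Mut and 127 CPM in WT. Astrocyte-like cells had 80.9 CPM in Mut and 71.1 CPM in WT. Oligodendrocyte precursor-like cells had 7.0 CPM in Mut and 8.75 CPM in WT, and oligodendrocyte-like cells had the least of the neural classes compared, 1.79 CPM in Mut and 0.848 CPM in WT.

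Lhx2, a LIM-homeodomain factor that specifies cortex against its midline border, was highest in excitatory neuron-like cells, at 451 CPM in Mut and 322 CPM in WT. Radial glia-like cells followed at 293 CPM in Mut and 230 CPM in WT, dividing astroglia-like cells at 214 CPM in Mut and 189 CPM in WT, and astrocyte-like cells at 196 CPM in Mut and 164 CPM in WT. The intervals of neighbours in this order do not overlap in either library. A UMI of Lhx2 was found in 76.4% of Mut astrocyte-like cells and 66.4% of WT ones, or 33.0% in Mut and 27.9% in WT at 2000 UMIs per cell, and in 1.18% of Mut and 1.13% of WT microglia-like cells.

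Emx1 and Emx2, homeodomain paralogues of the dorsal telencephalon, differed in their order. Among the neural classes compared, Emx1 was highest in excitatory neuron-like cells, at 71.5 CPM in Mut and 96.9 CPM in WT, then in radial glia-like cells at 26.7 CPM in Mut and 24.7 CPM in WT and in astrocyte-like cells at 10.4 CPM in Mut and 10.5 CPM in WT, with no overlap of intervals between these neighbours. Cajal-Retzius-like and oligodendrocyte-like cells had no Emx1 UMI in either library. Emx2 was highest in Cajal-Retzius-like cells, at 352 CPM in Mut and 262 CPM in WT. Astrocyte-like cells came next at 75.8 CPM in Mut and 66.9 CPM in WT, ahead of excitatory neuron-like cells at 57.2 CPM in Mut and 27.1 CPM in WT.

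Taking a factor as held by a class where its mean level over both libraries was at least 25% of that in its highest class among the neural classes with at least 30 cells per library, these classes had different sets. The rule leaves out the smaller striatal neuron-like and ependymal-like classes, where Six3 and Zic4 were higher. Radial glia-like cells held Zic1, Zic4, Nr2f1, Pax6, Lhx2 and Emx1, and excitatory neuron-like cells held the same 6, where Zic4 rests on 1 UMI in Mut (3.58 CPM) and 5 UMIs in WT (19.4 CPM). Cajal-Retzius-like cells held Zic1, Zic4, Nr2f2, Lhx2 and Emx2. Astrocyte-like cells held Zic4, Nr2f1, Pax6 and Lhx2, and dividing astroglia-like cells Nr2f1, Pax6 and Lhx2. In astrocyte-like cells Zic4 was at 29.8% of its highest class, while Zic1 at 24.3% and Emx2 at 23.2% lay just under the limit. Sp8 neuroblast-like cells held Zic1, Zic4, Nr2f1 and Pax6, dividing GABAergic precursor-like cells Zic1, Zic4 and Pax6, and other GABAergic neuron-like cells Six3, Zic1, Zic4 and Pax6. Oligodendrocyte precursor-like cells, dividing or not, held Nr2f1 alone, and oligodendrocyte-like cells held none. A class can hold a set without its single cells doing so. At least 4 of the 9 factors had a UMI in 25.9% of astrocyte-like Mut cells and 19.4% of WT ones, and none had one in 2.66% of Mut and 5.5% of WT cells.

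Which factors met in the same astrocyte-like cell was read from all 36 pairs, as the number of cells with UMIs of both genes over the number expected from the separate shares within 10 bins of cells by depth. In both libraries, 5 pairs lay above 1 and 7 below it by their intervals. Pairs of other genes were not counted in this class, so these numbers have no background share beside them. Whether the factors depart from 1 more often than other genes was not tested. Zic1 and Zic4 were found together in 133 Mut cells, 3.51 times the expected 37.9 (2.94 to 4.16), and in 129 WT cells, 3.67 times the expected 35.1 (3.07 to 4.36). Six3 and Nr2f2 were found together in 28 Mut cells against 4.21 expected, a ratio of 6.65 (4.42 to 9.61), and in 33 WT cells against 5.99 expected, a ratio of 5.51 (3.8 to 7.74). Zic1 with Emx1 had ratios of 1.47 in Mut and 1.57 in WT, Zic4 with Pax6 1.33 in Mut and 1.26 in WT, and Zic1 with Pax6 1.18 in Mut and 1.14 in WT.

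**Figure D2:**
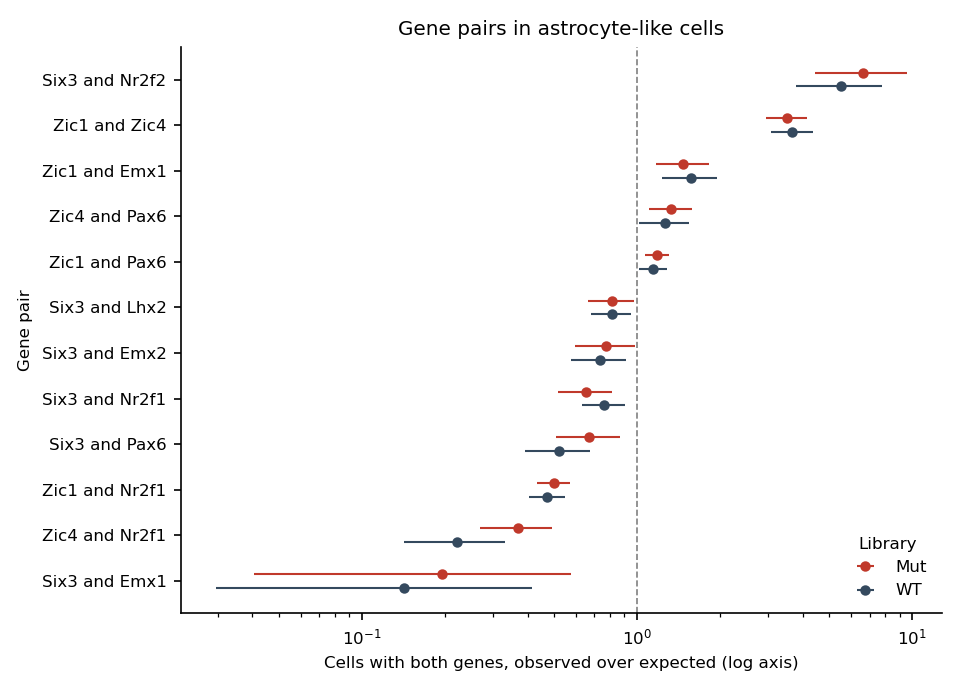
Cells with UMIs of both genes, observed over expected (log axis), for the 12 pairs whose interval excludes 1 in both libraries, in astrocyte-like cells; points are ratios, lines are 95% Poisson intervals, red is Mut and blue is WT. The pairs with Nr2f1 and Zic1 or Zic4, and all pairs of Six3 except that with Nr2f2, lie left of 1.

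Of the 7 pairs below 1, 5 involved Six3. Six3 and Emx1, a ventral and a dorsal factor, were found together in 3 Mut cells against 15.3 expected (ratio 0.196, 0.0405 to 0.574) and in 3 WT cells against 21.0 expected (0.143, 0.0294 to 0.417). Six3 with Pax6 had 0.668 in Mut and 0.519 in WT, with Nr2f1 0.653 in Mut and 0.760 in WT, with Emx2 0.771 in Mut and 0.732 in WT, and with Lhx2 0.809 in both. The pairs Zic1 with Nr2f1 (0.498 in Mut, 0.471 in WT) and Zic4 with Nr2f1 (0.369 in Mut, 0.222 in WT) were the other 2. Six3 with Zic1 had 1.02 in Mut (0.711 to 1.42) and 1.56 in WT (1.23 to 1.95). The pairs of Lhx2 with Nr2f1, Pax6 or Emx2, all frequent genes, had ratios of 0.983, 1.02 and 1.02 in Mut and 0.974, 1.08 and 1.05 in WT.

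The Zic pair and the Zic1 with Nr2f1 pair were followed into 5 other classes, as the plot of both pairs shows. Zic1 with Zic4 had ratios of 3.11 in Mut and 3.97 in WT dividing astroglia-like cells, 3.07 in Mut and 2.93 in WT radial glia-like cells, 2.23 in Mut and 2.24 in WT dividing GABAergic precursor-like cells and 4.06 in Mut and 4.09 in WT Sp8 neuroblast-like cells. All 8 of these intervals lie above 1. Zic1 with Nr2f1 was lowest in Sp8 neuroblast-like cells, where 2 Mut cells held both against 17.9 expected (ratio 0.112) and 2 WT cells against 17.5 expected (0.114). In oligodendrocyte precursor-like cells the ratio was 0.715 in Mut and 0.777 in WT, with intervals that include 1. Reads of the shared stretch of Zic1 and Zic4 could add to the first pair, and their part in it was not tested.

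**Figure D3:**
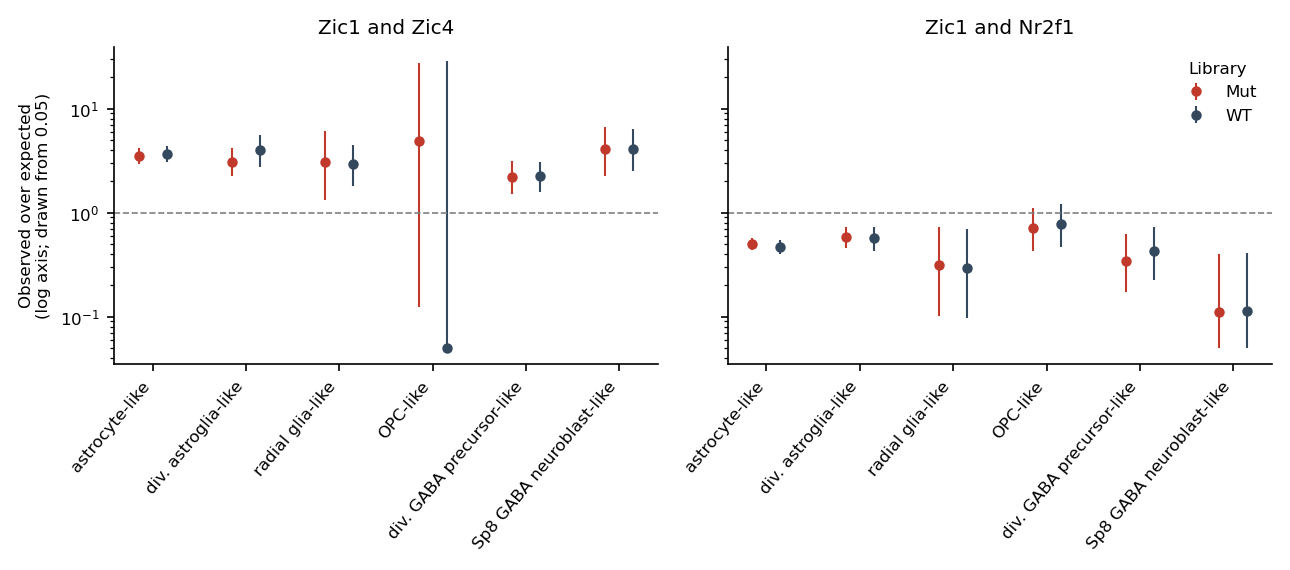
Cells with UMIs of both genes, observed over expected (log axis), for Zic1 with Zic4 (left) and Zic1 with Nr2f1 (right) in 6 classes; points are ratios, lines are 95% Poisson intervals, red is Mut and blue is WT. Zic1 with Zic4 lies above 1 in all classes but oligodendrocyte precursor-like (OPC-like) cells, where intervals are wide, and Zic1 with Nr2f1 lies below 1 in all points, with intervals that reach 1 in OPC-like cells.

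Astrocyte-like cells with a UMI of a factor were then compared with those without one, within each library. Cells with Six3 numbered 174 in Mut and 268 in WT, with medians of 9612.5 UMIs in Mut and 8433 UMIs in WT, against 9045.5 UMIs in Mut and 7789 UMIs in WT cells without it. Nr2f2 stood at 25.7 CPM in Mut cells with Six3 and 1.99 CPM in Mut cells without it, and at 23.1 CPM with and 2.12 CPM without it in WT. Emx1 stood at 1.71 CPM with and 10.9 CPM without Six3 in Mut, and at 1.33 CPM with and 11.3 CPM without it in WT. The genes with the highest ratio included Crym, a thyroid hormone binding protein (266 CPM with and 4.18 CPM without in Mut, 165 CPM with and 10.2 CPM without it in WT), Six3os1, Socs3 and the secreted Wnt antagonist Sfrp5 (54.8 CPM with and 7.40 CPM without it in Mut, 55.0 CPM with and 8.03 CPM without it in WT). The 13 striatal neuron markers summed to 406 CPM with and 422 CPM without Six3 in Mut, and to 342 CPM with and 410 CPM without it in WT, no higher with Six3 than without it. The 7 Cajal-Retzius markers summed to 32.5 CPM with and 16.3 CPM without Six3 in Mut, with 2 of them at 0 in the cells with it, and to 34.2 CPM with and 14.7 CPM without it in WT, with 2 at 0 as well. The 8 mural markers summed to 169 CPM with and 122 CPM without Six3 in Mut, and to 132 CPM with and 115 CPM without it in WT. The part of these markers' cells in the split was not tested. The 11 astrocyte markers summed to 12263 CPM with and 12361 CPM without it in Mut, and to 12001 CPM with and 11471 CPM without it in WT.

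Cells with Zic1, 653 in Mut and 620 in WT, had Nr2f1 at 87.3 CPM against 258 CPM without it in Mut, and at 77.3 against 238 CPM in WT. Hopx, a homeodomain-only protein of radial glia and some astrocytes, stood at 61.6 CPM with and 26.4 CPM without Zic1 in Mut, and at 64.8 CPM with and 31.2 CPM without it in WT. The leading genes included the urea transporter Slc14a2, the basement membrane gene Nid1, Zic4 and Creg2. Since Zic1 is high in mural-like and fibroblast-like cells, their markers were read in the same split. In Mut, the 8 mural markers summed to 113 CPM with and 127 CPM without Zic1. In WT, they summed to 114 CPM with and 118 CPM without it. The 7 fibroblast markers summed to 22.0 CPM with and 22.6 CPM without Zic1 in Mut. In WT their sum was higher with Zic1, at 19.8 CPM with and 15.3 CPM without it. The part of mural and fibroblast cells in this split was not tested. The cells with Nr2f2, 74 in each library, had Six3 at 73.3 CPM with and 8.37 CPM without it in Mut, and at 92.9 CPM with and 14.8 CPM without it in WT. The Cajal-Retzius markers summed to 38.7 CPM with and 16.7 CPM without Nr2f2 in Mut, and to 40.5 CPM with and 15.7 CPM without it in WT. The mural markers summed to 147 CPM with and 124 CPM without Nr2f2 in Mut, and to 139 CPM with and 116 CPM without it in WT, and their part was not tested. Gfap, the filament protein of fibrous astrocytes, stood at 505 CPM with and 151 CPM without Nr2f2 in Mut, and at 467 CPM with and 130 CPM without it in WT. Gfap also led the genes of cells with Pax6 (191 CPM with and 127 CPM without it in Mut, 185 CPM with and 104 CPM without it in WT). Emx1 shared Slc14a2 as its leading gene (116 CPM with and 60.3 CPM without it in Mut, 144 CPM with and 64.3 CPM without it in WT).

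Radial glia-like cells are a class cut from the astrocyte-like cells at a summed level of 500 CPM of 3 mature astrocyte genes. They are a range and not a type, and 112 Mut cells and 172 WT cells lay within 100 CPM of the limit. The 11 radial glia markers summed to 25212 CPM in Mut and 28852 CPM in WT here. Astrocyte-like cells had more, 42892 CPM in Mut and 45773 CPM in WT, so the name rests on the low astrocyte genes. The class was also shallower, with a median of 4705 UMIs in Mut and 4567 in WT against 9082.5 and 7842 in astrocyte-like cells. Hopx was one of the markers that set the class, and cells with a Hopx UMI (79 of 231 in Mut, 116 of 349 in WT) carried the dorsal factors at higher levels. Pax6 stood at 322 CPM with and 163 CPM without Hopx in Mut, and at 339 CPM with and 110 CPM without it in WT. Emx1 stood at 45.6 CPM with and 17.8 CPM without it in Mut, and at 51.0 CPM with and 13.3 CPM without it in WT. Lhx2 stood at 393 CPM with and 246 CPM without it in Mut, and at 312 CPM with and 194 CPM without it in WT. The higher levels were not limited to dorsal factors. Nr2f1 stood at 155 CPM with and 103 CPM without Hopx in Mut, and at 107 CPM with and 58.8 CPM without it in WT. Six3 had the reverse order: cells with Hopx had 0 UMIs in Mut, which allows up to 7.6 CPM, and 1 UMI in WT (1.82 CPM), whereas cells without it had 20.2 CPM in Mut and 47.8 CPM in WT. The bars by Hopx show that the intervals for Six3, Nr2f1, Pax6, Lhx2 and Emx1 do not overlap between the cells with and without it in WT.

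**Figure D4:**
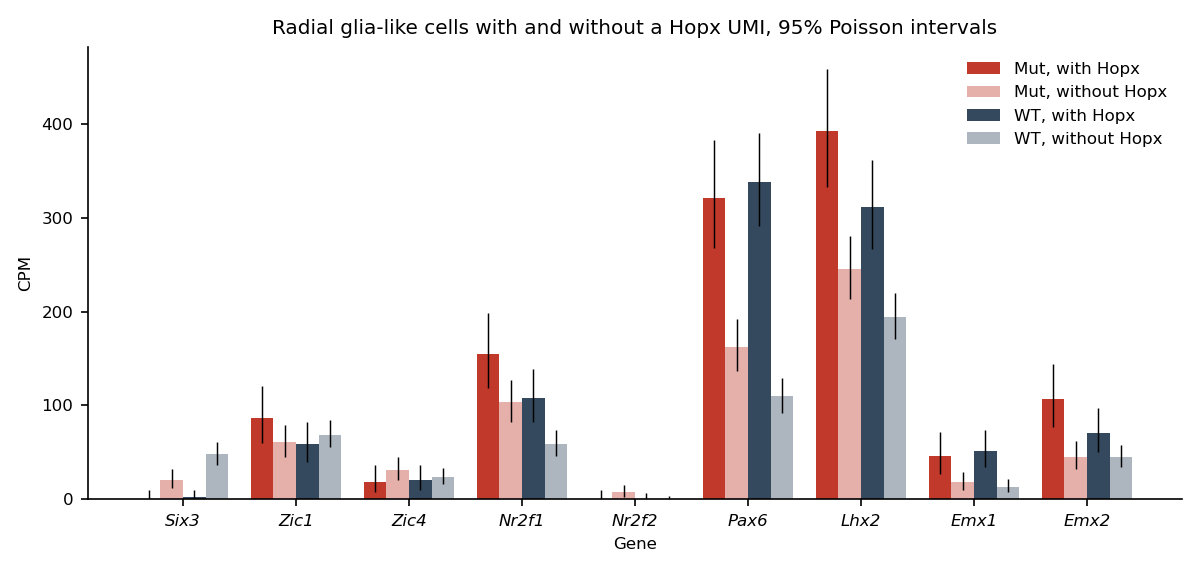
Level (CPM) of each factor in radial glia-like cells with and without a Hopx UMI, in Mut (red) and WT (blue); bars start at 0 and black lines are 95% Poisson intervals. Nr2f1, Pax6, Lhx2, Emx1 and Emx2 are higher and Six3 and Zic4 lower in the cells with Hopx in both libraries.

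Between genotypes, each factor was compared in the 11 neural classes as the ratio of its CPM in Mut to that in WT, and a pair of factor and class was called where the log2 ratio after adding 5 CPM was at least 0.5 in size and the libraries together held at least 30 UMIs. Of 99 pairs 73 met the minimum, and 13 were past the fold, 8 higher and 5 lower in Mut. Over all genes in these classes 5.66% of pairs were past it, 3.52% higher and 2.14% lower. The interval of the ratio excluded 1 in 32 of the 73 pairs, 26 higher and 6 lower in Mut, beside 16.2% of pairs over all genes, 11.0% higher and 5.17% lower. The interval narrows with more UMIs: Nr2f1 in astrocyte-like cells, with 6924 UMIs in Mut and 5684 in WT, excluded 1 at a ratio of 1.07. The shares over all genes were not matched to the factors by level. Whether the factors differ more often than genes of like level was not tested. A ratio above 1 was found for 59.4% of all gene and class pairs, which is the background for the directions below. The median log2 ratio of all genes lay between 0.001 and 0.079 in these classes.

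Six3 was the factor most often lower in Mut, in 6 of 8 classes with enough UMIs and with a median log2 ratio of -0.47. In astrocyte-like cells it had 308 UMIs in Mut and 457 in WT, a ratio of 0.594 (0.513 to 0.688) and a log2 ratio of -0.54, where 0.434% of all genes were past the fold in either direction. In dividing astroglia-like cells the ratio was 0.554 (0.403 to 0.756), beside 0.829% of genes past the fold. In radial glia-like cells there were 17 UMIs in Mut and 62 in WT, a ratio of 0.404 (0.222 to 0.701), beside 8.63%. A Six3 UMI was found in 5.19% of Mut and 12.3% of WT radial glia-like cells, and in 0.881% of Mut and 7.49% of WT ones at 2000 UMIs per cell. In Sp8 neuroblast-like cells the ratio was 0.292 (0.165 to 0.493), beside 6.38%, but the shares of cells were close, 2.17% in Mut and 2.51% in WT. Of the 77 WT UMIs in that class 21 came from 1 cell, and of the 18 Mut UMIs 7 did. In other GABAergic neuron-like cells the ratio was 0.746 (0.587 to 0.945), with a log2 ratio of -0.40, inside the fold. In dividing GABAergic precursor-like cells it was 0.703 (0.370 to 1.30), inside the fold too. The oligodendrocyte precursor-like cells, with 81 UMIs in Mut and 71 in WT, had a ratio of 1.17 (0.839 to 1.63), where 0.735% of genes were past the fold. The striatal neuron-like cells, too few to be among the 11 classes, had a ratio of 1.53 (1.08 to 2.17), beside 23.3%. With 20 CPM added in place of 5 the log2 ratio was -0.30 in astrocyte-like and -0.27 in dividing astroglia-like cells, inside the fold. In dividing astroglia-like cells thinned to 1000 UMIs each it turned to 0.42. The free RNA had less Six3 in Mut too, 53 UMIs against 78 in WT, and its part in the class ratios was not tested.

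**Figure D5:**
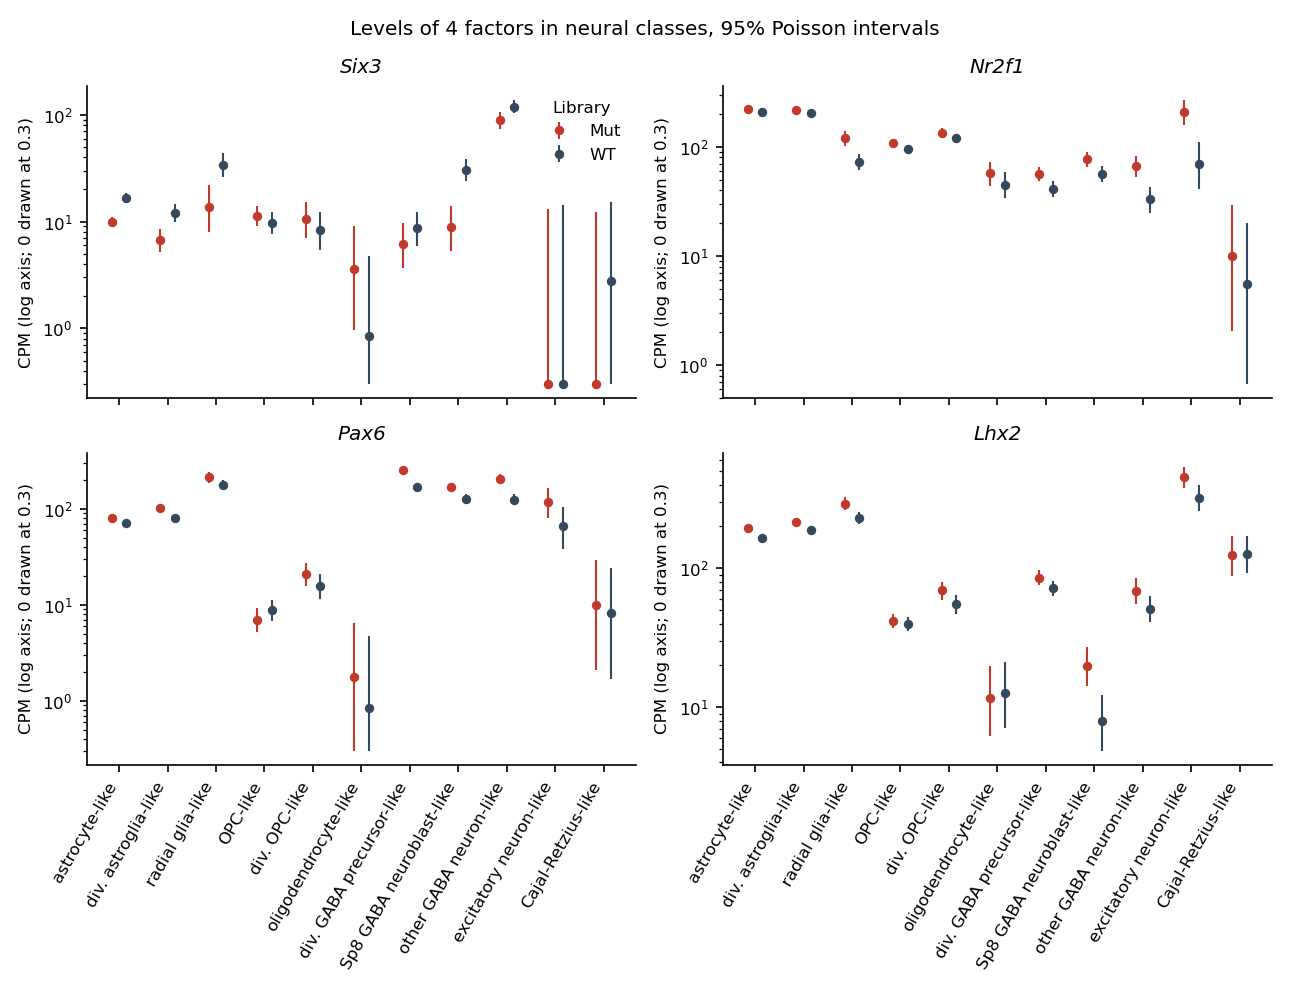
Level (CPM, log axis, 0 drawn at 0.3) of Six3, Nr2f1, Pax6 and Lhx2 in 11 neural classes, with 95% Poisson intervals; red is Mut, left of WT in blue. Six3 is lower in Mut in the 3 astroglial classes and the Sp8 neuroblast-like cells, and Nr2f1 is above WT in the 10 classes with enough UMIs, over the cells of both sexes.

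Nr2f1 had a ratio above 1 in 10 of 10 classes, with a median log2 ratio of 0.37, although in female cells alone the log2 ratio was -0.27 in astrocyte-like, -0.36 in dividing astroglia-like and -0.16 in Sp8 neuroblast-like cells. With 1 more marker needed for each class it was -0.20 in Sp8 neuroblast-like cells. It was past the fold in radial glia-like cells at 120 CPM in Mut and 73.4 CPM in WT (ratio 1.63, 1.28 to 2.07; a log2 ratio of 0.29, inside the fold, with the class limit at 1000 CPM), and in other GABAergic neuron-like cells at 67.0 CPM in Mut and 33.1 CPM in WT (2.02, 1.42 to 2.89), where 9.02% of all genes were past it. In that class the 9 cortical interneuron markers summed to 1834 CPM in Mut and 175 CPM in WT, so its make-up and the level per cell cannot be told apart for Nr2f1 and Pax6. In excitatory neuron-like cells it stood at 207 CPM in Mut and 69.8 CPM in WT (2.97, 1.73 to 5.36), in a class of 47 Mut cells and 42 WT cells where 29.5% of genes were past the fold. In astrocyte-like cells, with 6924 UMIs in Mut and 5684 in WT, the ratio was 1.07 (1.04 to 1.11). Ependymal-like cells had 46 Nr2f1 UMIs in 22 Mut cells and 1 UMI in 17 WT cells (31.0, 5.30 to 1252), where 22.2% of genes were past the fold. Mural-like cells, outside the neural lineage, had 124 CPM in Mut and 82.6 CPM in WT (1.5, 1.14 to 1.98), beside 10.8%. Its paralogue Nr2f2 was past the fold in none of the 5 classes tested. In oligodendrocyte precursor-like cells it had 77 UMIs in Mut and 47 in WT, a ratio of 1.68 (1.15 to 2.47). In Cajal-Retzius-like cells, where 19.8% of genes were past the fold, the ratio was 1.22 (0.977 to 1.53).

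Pax6 had a ratio above 1 in 8 of 9 classes. It was past the fold in dividing GABAergic precursor-like cells at 255 CPM in Mut and 169 CPM in WT (ratio 1.51, 1.35 to 1.68), beside 3.67% of genes, in other GABAergic neuron-like cells (1.64, 1.36 to 1.98) and in excitatory neuron-like cells (1.79, 0.969 to 3.43). Lhx2 had a ratio above 1 in 9 of 10 classes and was past the fold in Sp8 neuroblast-like cells, with 40 UMIs in Mut and 20 in WT (2.50, 1.43 to 4.51). Emx2 had 26 UMIs in Mut and 10 in WT there (3.25, 1.52 to 7.55). In dividing GABAergic precursor-like cells Emx2 lay just inside the limit, with a log2 ratio of 0.50 (ratio 1.53, 1.08 to 2.19). Zic1, Zic4 and Emx1 had ratios on both sides of 1, in 5 and 5, 3 and 3, and 3 and 3 classes. Of these only Zic1 passed the fold, in excitatory neuron-like cells, with 12 UMIs in Mut and 23 in WT (0.481, 0.218 to 1.01). In female cells alone that log2 ratio turned to 0.60.

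The excitatory neuron-like class differed in other marker genes as well. Neurog2 and Eomes, factors of intermediate progenitors, had 44 and 144 UMIs in Mut and 7 and 57 in WT, with ratios of 5.80 (2.59 to 15.3) and 2.33 (1.70 to 3.22). Fezf2 and Foxp1, factors of deep-layer neurons, had 11 UMIs each in Mut and 31 and 55 in WT, with ratios of 0.327 and 0.184. The make-up of the class and the level per cell cannot be told apart for Nr2f1, Pax6 and Zic1 there.

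Within the radial glia-like cells, the split by Hopx was repeated for the ratio. Without Hopx, Six3 had a ratio of 0.422 (0.231 to 0.732), Nr2f1 1.76 (1.27 to 2.43) and Pax6 1.48 (1.16 to 1.89). With Hopx, Nr2f1 had 1.44 (0.989 to 2.09) and Pax6 0.950 (0.752 to 1.20), and Six3 had too few UMIs for a ratio. The share of cells with Hopx was 79 of 231 in Mut and 116 of 349 in WT.

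Because the libraries differ in the share of female cells, the ratios were also taken within each sex. Six3 in astrocyte-like cells had a ratio of 0.454 (0.357 to 0.575) in female and 0.842 (0.668 to 1.06) in male cells, in radial glia-like cells 0.221 (0.0643 to 0.619) and 0.728 (0.287 to 1.64), and in Sp8 neuroblast-like cells 0.131 (0.0332 to 0.380) and 0.202 (0.0700 to 0.479). The Six3 ratio had an interval below 1 in both sexes for the Sp8 neuroblast-like cells alone among these 3 classes. That class held only 18 Six3 UMIs in Mut and 77 in WT, a large part of them from a single cell in each library. UMIs of the same cell are not independent counts, so these intervals are too narrow. Cells with no sex call are in neither ratio, and the ratio over all cells of the class, 0.292, was nearer to 1 than both. Nr2f1 in astrocyte-like cells had a ratio of 0.826 (0.787 to 0.867) in female cells, at 221 CPM in Mut and 268 CPM in WT, and 1.33 (1.25 to 1.41) in male cells, at 227 CPM in Mut and 171 CPM in WT. In dividing astroglia-like cells the Nr2f1 ratio was 0.775 (0.711 to 0.845) in female and 1.49 (1.34 to 1.66) in male cells. Pax6 in dividing GABAergic precursor-like cells had like ratios, 1.45 (1.24 to 1.71) in female and 1.49 (1.25 to 1.79) in male cells. Sex marks groups of animals here, and animal and sex cannot be told apart.

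Other regional factors were read from 5 lists on the same fold. In astrocyte-like cells, where Six3 was past it, 0.434% of all genes were. There 0 of 14 subpallial, 0 of 5 pallial and 0 of 12 telencephalon-wide genes tested were past it. So were 0 of 2 caudal genes and 0 of 7 genes of the same families. Counts of 0 in lists this short are near the share of all genes and do not set Six3 apart from them. In radial glia-like cells Gsx2, a subpallial progenitor factor, was higher (25 UMIs in Mut, 17 in WT, ratio 2.17, 1.13 to 4.28) and Dlx1 lower (0.601, 0.269 to 1.25) among 7 subpallial genes tested, with a median log2 ratio of -0.28 beside 0.04 over all genes, 8.63% of which were past the fold. In dividing GABAergic precursor-like cells, where 3.67% of all genes were past the fold, 2 of 5 related family genes were higher, Zic2 (1.75, 1.33 to 2.30) and Zic5 (1.52, 1.19 to 1.94), beside Zic1 at 1.09 (0.946 to 1.26). Dmrta2, a dorsal factor that acts near Emx2, was higher there (83 UMIs in Mut, 52 in WT, 1.93, 1.35 to 2.79), 1 of 2 pallial genes tested. Vax1, a ventral factor, was lower (0.624, 0.400 to 0.958), the only gene past the fold among 14 subpallial genes tested. Those 14 had a median log2 ratio of 0.08 beside 0.05 over all genes, so the list as a whole was not lower. In Sp8 neuroblast-like cells, where 6.38% of all genes were past it, Olig2, a subpallial gene of progenitors, was higher (2.03, 1.05 to 4.05). It was 1 of 2 genes higher among 13 subpallial genes tested.

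The genes most like each factor were taken over 32 sums, 16 classes in each library, among 7545 genes. Zic1 and Zic4 were each other's most similar gene (Pearson r = 0.950 on log2 CPM). Emx2 was most like Dmrta2 (0.963), Nrg1 (0.938) and its antisense partner Emx2os (0.927), and Pax6 most like the neural progenitor factor Sox1 (0.962) and Kcnn2 (0.962). Lhx2 was most like Scrn1 (0.933), Nr2f1 most like Smarcd3 (0.925), Nr2f2 most like the secreted factor Bmp5 (0.904), and Emx1 most like the guidance receptor Unc5d (0.944). Six3 had the lowest top value, 0.782 with Rpp25l. Among the factors themselves, Lhx2 with Emx2 had 0.874, Lhx2 with Emx1 0.760, Emx1 with Emx2 0.477 and Nr2f1 with Nr2f2 -0.03. The points share libraries and depth, so these values describe the classes of these libraries.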

How the data were processed

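The deposited values were UMI counts per gene and barcode, not normalized, in 1 matrix per library. Per the file headers they were made with Cell Ranger 4, and per the submitters' processing notes with Cell Ranger and STAR on GRCm38. The annotation release and the use of strand in counting are not given in these sources. Both libraries were mapped from the labels, and 0 columns had no sample.

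Barcodes were kept from 1000 UMIs and 500 genes upward when no more than 20% of their UMIs were mitochondrial, 10102 in Mut and 11024 in WT, of which 39 barcodes were found in both libraries (0.386% of Mut, 0.354% of WT). Doublets were removed by Scrublet (scanpy 1.11.5) at a rate of 0.8% per 1000 barcodes, 816 barcodes (8.08%) in Mut and 972 (8.82%) in WT; its automatic threshold would have removed 396 and 390. A cell was put in a class when it held a UMI of at least 3 to 6 genes of that class's marker list. These thresholds were settled after seeing the data. Radial glia-like cells also had under 500 CPM of Aqp4, Fgfr3 and Slc4a4 together. Cells were called female by Xist without UMIs of 4 Y-linked genes, and male by the reverse.

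Counts were summed per class and library and divided by the class's summed UMIs (CPM). Levels have exact Poisson intervals, shares of cells have Clopper-Pearson intervals, and ratios have intervals from the exact binomial for 2 Poisson counts. A zero is given the limit that 3 counts set. Genes together in a cell were counted against the product of their shares within 10 depth bins. The named genes are the 9 factors; the 3 genes most correlated with each over sums with at least 50 CPM somewhere; up to 5 genes highest in astrocyte-like cells with a factor over those without it (20 CPM added, at least 50 UMIs); and genes of 5 regional lists past the fold. The factors and the lists were chosen with earlier results of these data known. Calculations used Python 3.11.15, numpy 2.4.6 and scipy 1.17.1. TMM factors for one alternative came from edgeR 4.0.16 in R 4.3.3. The ratio calls and the measure of joint detection were run on simulated counts with known answers. These held counting error and, for joint detection, cell depth, but no variation between animals or libraries. They therefore cannot check errors from having 1 library per genotype, or from single cells that hold many UMIs of a gene. Gene positions came from GENCODE on GRCm38 and promoters from RefSeq on GRCm38.p6. Alternatives changed doublet removal, the UMI and mitochondrial limits, the marker rules, the sex of the cells, depth, the added CPM, the scaling and the minimum of UMIs. A few genes that these rules name are not reported here.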

Additional observations from a re-analysis of the deposited data

Results flagged for a closer look

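In 3 comparisons the Mut over WT ratio pointed one way in female cells and the other way in male cells, each with an interval that excludes 1. The difference between the sexes was not tested, as each genotype has 1 library and animals cannot be told apart within a sex. Nr2f1 in astrocyte-like cells had a ratio of 0.826 (0.787 to 0.867) in female cells and 1.33 (1.25 to 1.41) in male cells. In dividing astroglia-like cells it had 0.775 in female cells, at 211 CPM in Mut and 273 CPM in WT, and 1.49 in male cells, at 236 CPM in Mut and 158 CPM in WT. Zic1 in oligodendrocyte precursor-like cells rests on fewer UMIs, 48 in Mut and 16 in WT for a ratio of 1.99 (1.11 to 3.76) in female cells, and 10 in Mut and 37 in WT for a ratio of 0.415 (0.184 to 0.852) in male cells.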

How the results depend on the processing

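No paired analysis was possible because each genotype has 1 library, and for the same reason no replicate could be left out. Of 34 named ratios, none moved beyond its interval or turned without doublet removal, with a minimum of 2000 UMIs, a mitochondrial maximum of 10%, TMM scaling or the median of all genes set to 0. In female cells 16 moved and 1 turned, in male cells 14 moved, and in cells thinned to 1000 UMIs 6 moved and 1 turned; the added CPM, the stricter marker rule and the radial glia-like limit moved 1 to 3 each. Of 24 joint detection ratios, 11 moved in cells thinned to 3000 UMIs, 3 in female cells and 1 in male cells. The 13 factor and class pairs past the fold became 6 with cells thinned to 1000 UMIs and 22 with no filter on UMIs, against 10 to 17 under the other alternatives. The 32 intervals that excluded 1 became 18 in male cells and 10 in thinned cells, against 23 to 33 elsewhere. The 5 pairs of factors above 1 in astrocyte-like cells became 3 in female cells and 2 in male cells, against 5 to 7 elsewhere, and the 7 pairs below 1 became 4 in male cells and 3 in cells thinned to 3000 UMIs. Male, female and thinned sums hold fewer UMIs by construction. The 85 factor and class levels above the microglia-like level became 81 to 87. A pair of called log2 ratios turned: Zic1 in excitatory neuron-like cells was 0.60 in female cells, and Six3 in dividing astroglia-like cells was 0.42 in cells thinned to 1000 UMIs; the cause was not tested. The stricter marker rule moved Six3 in Sp8 neuroblast-like cells to -0.69. The limit of 1000 CPM for radial glia-like cells was chosen after seeing the data. Classes under 50 cells, such as the excitatory neuron-like cells, have the widest intervals.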
